A study of Mus musculus with 10 samples.

Results

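Recruited monocytes and the macrophages they become in an infarct were followed through 10 marker genes in RNA of mouse cardiomyocytes. The genes were chosen by name, as the rows of the count table whose Ensembl identifier maps to Ccr2, Ly6c2, Chil3, Plac8, Arg1, Spp1, Trem2, Lgals3, Adgre1 or Cd68 in the GENCODE M21 annotation. All 10 were found among the 51789 genes of the table, and all 10 were among the 15232 genes that passed the filter on low counts and were tested.

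The libraries came from mice with cardiomyocyte-specific overexpression of G protein-coupled receptor kinase 5 (TgGRK5-MI) and from their non-transgenic littermate controls (NLC-MI). All mice had a myocardial infarction (MI) by permanent ligation of a coronary artery, and cardiomyocytes were isolated 4 days later. Each group had 5 mice with 1 library per mouse, and both groups carried the infarct, so no uninjured heart enters the comparison. The labels give no strain, age or sex for a mouse, and mice of both sexes were used in the study. The study stained heart sections of such mice for CD68 and counted CD68, F4/80, Ly6C and CCR2 positive cells by flow cytometry. At 4 days it reported more CD68 positive cells in the border zone and infarct of TgGRK5 hearts. By flow cytometry it reported more macrophages in them and no difference in monocytes. The comparison here asks whether the RNA of these markers differed between the groups in the cardiomyocyte preparation.

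After an infarct, monocytes leave the bone marrow and spleen and enter the injured muscle through the chemokine receptor CCR2, which binds CCL2. Freshly recruited mouse monocytes carry much Ly6C on their surface, and they mature in the tissue into macrophages that clear dead cells, remodel matrix and direct scar formation. Among the markers, Ccr2, Ly6c2, Chil3 and Plac8 belong to the monocyte stage, while Arg1, Spp1, Trem2 and Lgals3 mark macrophages of healing and injured tissue. Adgre1, which encodes F4/80, and Cd68, a lysosomal glycoprotein, are carried by macrophages in general. In RNA of a bulk preparation, fewer cells of a type and less RNA per cell cannot be told apart, and the cardiomyocyte label refers to the bulk of the preparation.

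Each marker is a single gene, but 2 of them have a close copy that bears on how their reads were counted. Ly6c2 lies at chr15:75108158-75111970 on the minus strand of GRCm38, and Ly6c1, its neighbour, is known as an endothelial gene as well. Their coding sequences had the same length of 396 bases and shared 387 of them (97.7%), with 9 differences and a longest identical run of 188 bases. The first 120 bases of both are shown because 6 of the 9 differences fall there, and capitals mark the bases at which they differ.
Ly6c2: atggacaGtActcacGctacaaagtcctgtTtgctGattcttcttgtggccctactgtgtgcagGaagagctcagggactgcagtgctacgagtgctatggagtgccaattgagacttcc
Ly6c1: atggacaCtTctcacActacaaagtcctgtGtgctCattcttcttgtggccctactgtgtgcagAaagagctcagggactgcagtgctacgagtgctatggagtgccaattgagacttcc
Of the 50-base stretches of Ly6c2 transcripts, 30.8% also occurred in Ly6c1. The measured level of Ly6c1 was 34.5 to 78.8 times that of Ly6c2 in CPM (counts scaled to library size with TMM factors), so the level of Ly6c2 depends on how reads shared with a much more abundant copy were divided. Chil3 (chr3:106147554-106167564, minus strand) shared 28.5% of its 50-base stretches with 2 other genes. Chil4 shared the most, 17.9%, and the coding sequences of Chil3 and Chil4 were 94.4% identical. Chil4 had 0 counts in 9 libraries and 1 count in TgGRK5-MI 3. No counts are given here for the other gene, so its part in the reads of Chil3 was not tested. Spp1 was the one marker whose exons overlapped those of another gene, the predicted gene Gm42793 on the same strand, over 309 bases. Ccr2 shared 1.91% of its 50-base stretches with other genes, and Plac8, Arg1, Trem2, Lgals3, Adgre1 and Cd68 shared none.

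RefSeq promoter sequence of GRCm38.p6 was read for 8 of the 10 markers, in 11 windows of 250 bases before an annotated start. Arg1 and Adgre1 had no window. A pair of motifs was searched on both strands: GAGGAA, the core bound by the myeloid factor PU.1, and TGANTCA, for AP-1. The second is a loose form of the AP-1 element, since N allows any base at its centre. The PU.1 core occurred in 6 of the 11 windows, belonging to 5 markers, and in 23.3% of all 32851 promoter windows of this length. The windows are not all separate, since those of Ly6c2 overlap and hold 1 match in common. The AP-1 letters occurred in 2 of the 11 windows and in 6.75% of all windows. Cd68 and Trem2 are shown because their windows held both motifs, and Chil3 because its window held neither and because it had the lowest median correlation with the other markers. The windows of Ccr2 and Lgals3 also held neither motif. Their median correlations with the other markers were 0.67 and 0.81, against -0.15 for Chil3. A link between these motifs and the correlations was not tested. Capitals mark the matches in the orientation in which they lie, 5′ to 3′ along the gene.
Cd68 (chr11:69666171-69666420, minus strand): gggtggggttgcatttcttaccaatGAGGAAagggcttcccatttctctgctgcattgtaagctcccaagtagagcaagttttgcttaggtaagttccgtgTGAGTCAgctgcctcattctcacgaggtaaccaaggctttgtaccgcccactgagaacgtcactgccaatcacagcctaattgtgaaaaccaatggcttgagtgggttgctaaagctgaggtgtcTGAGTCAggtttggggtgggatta
Trem2 (chr17:48346151-48346400, plus strand): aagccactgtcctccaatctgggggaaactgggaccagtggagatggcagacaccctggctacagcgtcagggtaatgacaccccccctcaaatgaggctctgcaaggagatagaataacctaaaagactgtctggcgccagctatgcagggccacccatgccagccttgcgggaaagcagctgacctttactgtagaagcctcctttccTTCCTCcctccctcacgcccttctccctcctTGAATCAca
Chil3 (chr3:106167565-106167814, minus strand): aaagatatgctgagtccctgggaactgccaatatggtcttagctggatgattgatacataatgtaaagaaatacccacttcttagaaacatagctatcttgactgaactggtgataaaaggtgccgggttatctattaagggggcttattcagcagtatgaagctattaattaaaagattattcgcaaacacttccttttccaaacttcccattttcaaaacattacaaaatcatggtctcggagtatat
Counted from the start site, the Cd68 window held the PU.1 core at -225 and the AP-1 letters at -149 and -24, while Trem2 held the PU.1 core at -40 and the AP-1 letters at -9. Both Cd68 matches read TGAGTCA, and the Trem2 match reads TGAATCA, which only the loose form admits. A match is a description of the letters, and it was not tested whether a factor binds there.

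The libraries held 7968779 to 23381527 counts, and NLC-MI 3, TgGRK5-MI 3 and TgGRK5-MI 4 were the shallow ones with 12833652 or fewer. An amount of 3 counts, taken as the least the depth can show, corresponded to 0.121 to 0.393 CPM, a floor that covers counting error only. Every marker was above this amount in every library, with the fewest counts, 13, for Ly6c2 and the most, 13285, for Spp1. The mouse gene Grk5, read as a check of the transgene, ran from 46.5 to 73.1 CPM in the controls and from 552 to 1700.4 CPM with the transgene. Reads of the transgene and of the mouse's own gene were not separated. The 12 cardiomyocyte genes listed, Myh6 and Actc1 highest among them, summed to 64363 to 167168 CPM. Of these 12, Ryr2 had an unadjusted p under 0.05 and lay lower in TgGRK5-MI (edgeR adjusted p = 0.968).

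Levels can be set between genes only per length, so CPM was divided by the length of all annotated exons of a gene in kilobases. Spp1, which encodes the secreted matrix protein osteopontin, was the highest at 218 CPM per kb over the 10 libraries. Cd68 followed at 81.9 and Lgals3, the gene of galectin-3, at 80.2 CPM per kb. Arg1 was at 16.9, Adgre1 at 15.9, Trem2 at 6.44, Plac8 at 5.04, Ccr2 at 3.60, Chil3 at 2.72 and Ly6c2 at 0.772 CPM per kb. Macrophage markers thus stood above all 4 monocyte markers in mean level per length. Not every step in this order held within the libraries. Spp1 was above Cd68, Lgals3 above Arg1, Adgre1 above Trem2 and Chil3 above Ly6c2 in 10 of 10 libraries. Cd68 was above Lgals3 in 3 of 10, Arg1 above Adgre1 in 5 of 10 and Plac8 above Ccr2 in 5 of 10, so these steps did not hold in most libraries. Trem2 exceeded Plac8, and Ccr2 exceeded Chil3, in 7 of 10 libraries. The length matters for Trem2 and Ly6c2, whose annotated exons total 4946 and 2740 bases against 1088 and 822 bases in the longest coding transcript. Per kb of that transcript, Trem2 was at 29.3 CPM and ranked 4 instead of 6, so that its mean lay above those of Arg1 at 25.5 and Adgre1 at 15.9 and the step from Adgre1 to Trem2 was reversed. Spp1 stayed first at 238 and Ly6c2 last at 2.57, but on this length Chil3 was above Ly6c2 in 4 of 10 libraries.

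No marker passed a test of the difference between TgGRK5-MI and NLC-MI. With edgeR's quasi-likelihood test and Benjamini-Hochberg adjustment over all 15232 genes, 0 of 10 markers had an adjusted p under 0.10, a threshold passed by 0.0788% of all genes tested (8 higher and 4 lower in TgGRK5-MI). At an unadjusted p under 0.05 it was also 0 of 10 markers, against 3.85% of all genes tested. DESeq2 and limma-voom also called 0 of 10 at either threshold. The 2 groups overlapped for every marker, and they did not overlap for 1.00% of all genes. Fold changes were positive for 8 markers and negative for Chil3 and Spp1, with a median log2 fold change of 0.19 over the 10 markers and 0.00 over all genes tested. Of all genes tested, 50.2% had a positive fold change. The markers varied among mice of 1 group more than most genes did, since the median SD of log2 CPM within a group was 0.72 over the markers and 0.38 over all genes tested. With limma-voom and its quality weights, 4 of 10 were positive and the median was -0.04. The direction also rested on single mice. Without TgGRK5-MI 2, 3 of 10 markers had a positive fold change and the median was -0.11, without NLC-MI 5 it was 5 of 10 with a median of -0.0051, and without NLC-MI 3 it was 6 of 10 with a median of 0.05. Without NLC-MI 1 it was 9 of 10 with a median of 0.37.

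**Figure D1:**
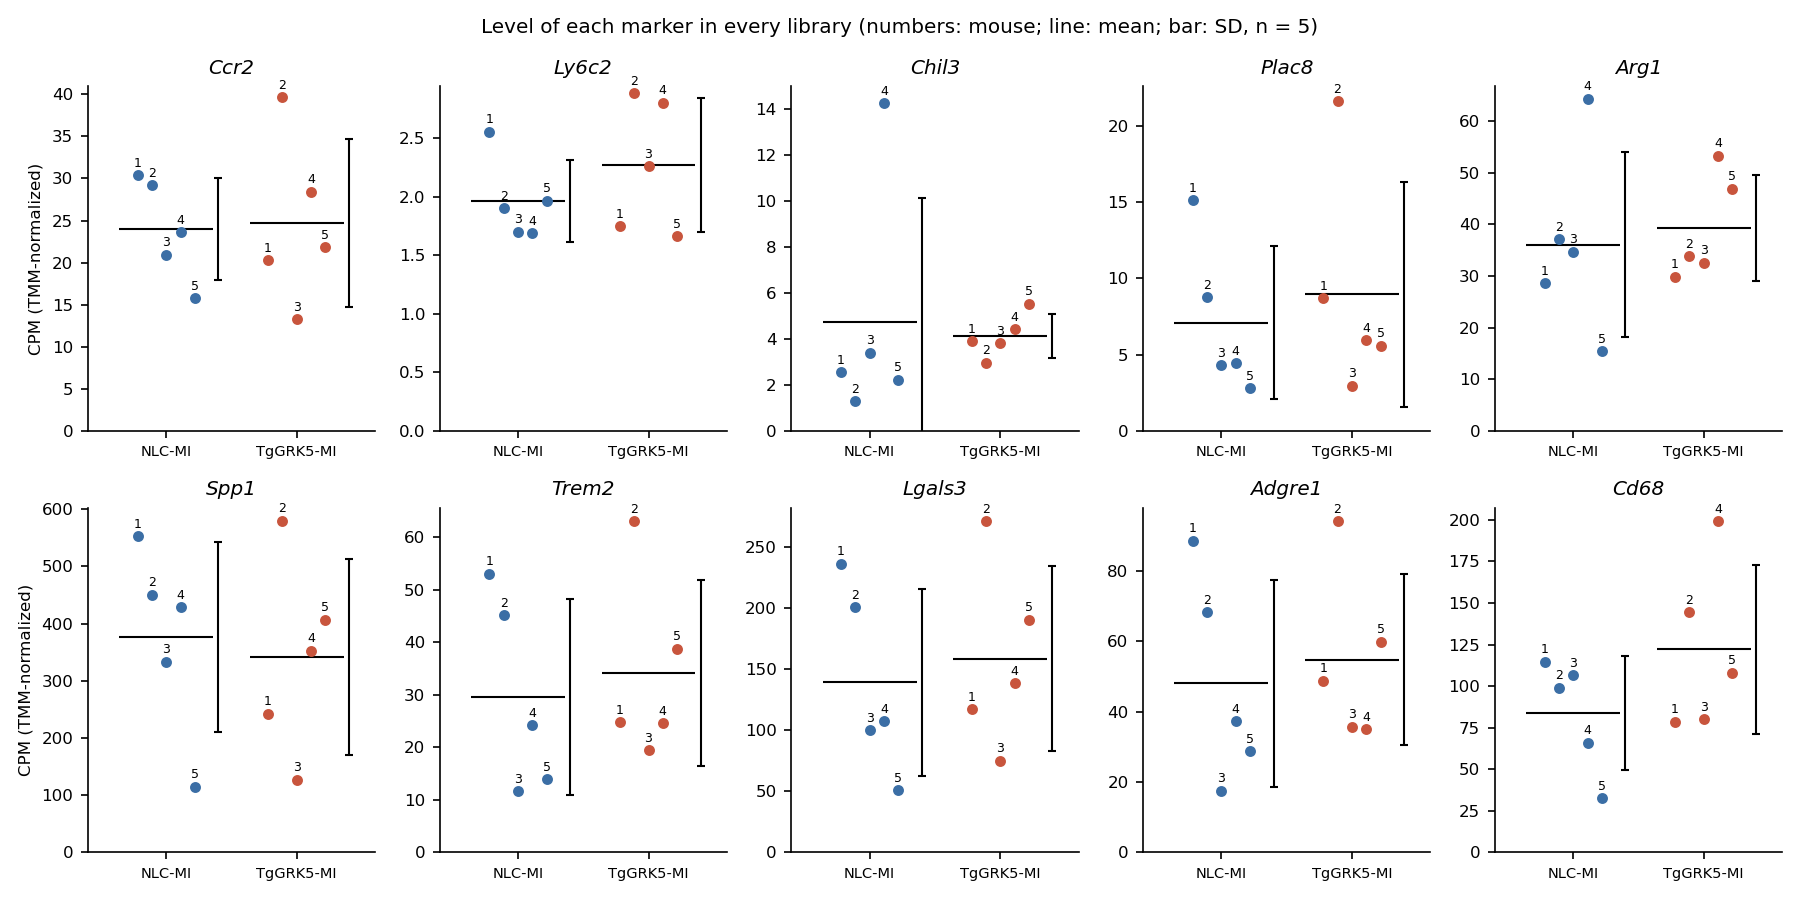
Level of the 10 markers in CPM (TMM-normalized) on linear axes from 0, with 1 point per mouse numbered 1 to 5, a line at the group mean and a bar of 1 SD (n = 5; the bar of Chil3 in NLC-MI is cut off at 0). The groups overlap in every panel, TgGRK5-MI 2 is the highest library for 7 markers, and NLC-MI 4 stands alone in the panel of Chil3.

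Among the monocyte markers, Ccr2 (chr9:124101950-124113557, plus strand) encodes the receptor that draws monocytes out of the marrow and into injured tissue. It was at 30.3, 29.2, 20.9, 23.6 and 15.8 CPM in NLC-MI mice 1 to 5 and at 20.3, 39.7, 13.3, 28.4 and 21.8 CPM in TgGRK5-MI mice 1 to 5. The highest and the lowest library both belonged to TgGRK5-MI, and the group means were 24.0 ± 6.02 and 24.7 ± 9.95 CPM (SD, n = 5 each). The fitted log2 fold change of Ccr2 was 0.04 (standard error 0.28, 95% interval -0.56 to 0.64, edgeR adjusted p = 1.00). The difference of mean log2 CPM was -0.013, and its exact two-sided permutation test gave p = 0.960, where the smallest p that 5 against 5 libraries can give is 0.00794.

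Ly6c2 encodes the Ly6C antigen of inflammatory monocytes. It was the marker with the fewest counts, at 2.55, 1.90, 1.70, 1.69 and 1.96 CPM in NLC-MI mice 1 to 5 and 1.74, 2.88, 2.26, 2.80 and 1.66 CPM in TgGRK5-MI mice 1 to 5. The groups covered nearly the same range, with a log2 fold change of 0.19 (standard error 0.24, 95% interval -0.34 to 0.72, exact permutation p = 0.365). Its copy Ly6c1 averaged 95.4 ± 7.42 CPM in the controls, against 119 ± 41.9 CPM in the transgenic mice (SD, n = 5 each, edgeR adjusted p = 1.00). The part of reads shared with Ly6c1 in the values of Ly6c2 was not tested.

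Chil3 encodes Ym1, a chitinase-like protein that monocytes and also neutrophils make. In NLC-MI mice 1 to 5 it was at 2.55, 1.30, 3.40, 14.3 and 2.23 CPM, and in TgGRK5-MI mice 1 to 5 at 3.89, 2.97, 3.82, 4.42 and 5.53 CPM. A single library, NLC-MI 4, held 304 counts and stood far above the other 9, and 4 of 5 TgGRK5-MI libraries were above all remaining NLC-MI ones. With all libraries the log2 fold change was -0.22 (standard error 0.55, 95% interval -1.43 to 0.99). The difference of mean log2 CPM, in which a single high value weighs less, was 0.30 (exact permutation p = 0.651). Without NLC-MI 4 the fitted log2 fold change became 0.83 and passed an unadjusted edgeR p under 0.05, the one such case among all markers and left-out mice, and with all mice kept limma-voom gave 0.77, so the sign of Chil3 depended on NLC-MI 4 and on the fit. Of 12 neutrophil genes, 8 were tested and Ly6g, Camp and Ngp had at most 3 counts in any library. Their summed level was 26.7 to 101 CPM in NLC-MI, with NLC-MI 4 the highest, and 32.7 to 134 CPM in TgGRK5-MI, with TgGRK5-MI 4 the highest. Its part in the level of Chil3 was not tested.

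Plac8 (chr5:100553725-100572245, minus strand) is a small cysteine-rich protein gene used to recognize Ly6C-high monocytes. Its levels were 15.1, 8.74, 4.32, 4.46 and 2.81 CPM in NLC-MI mice 1 to 5 and 8.68, 21.6, 2.96, 5.92 and 5.58 CPM in TgGRK5-MI mice 1 to 5. Both groups had 1 or 2 high mice and a majority at low levels, which gave the widest relative spread within TgGRK5-MI of all markers (SD of log2 CPM 1.04). Its log2 fold change was 0.33 (standard error 0.55, 95% interval -0.86 to 1.53, exact permutation p = 0.698).

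Among the markers of infarct macrophages, Arg1 (chr10:24915221-24927484, minus strand) encodes arginase, which takes arginine toward ornithine and polyamines. It was at 28.5, 37.2, 34.7, 64.3 and 15.4 CPM in NLC-MI mice 1 to 5 and at 29.9, 33.9, 32.6, 53.3 and 46.9 CPM in TgGRK5-MI mice 1 to 5. The NLC-MI mice held both the highest and the lowest value, NLC-MI 4 and NLC-MI 5. For Arg1 the log2 fold change was 0.12 (standard error 0.32, 95% interval -0.56 to 0.81, exact permutation p = 0.587). Arg2, the other arginase gene, had at most 11 counts in a library and was not tested. Nos2, whose enzyme competes for arginine, was at 21.6 ± 7.04 and 18.3 ± 4.87 CPM (SD, n = 5 each, edgeR adjusted p = 1.00).

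Spp1 (chr5:104435118-104441050, plus strand) was measured with the most counts, 1462 to 13285 per library. Its levels were 553, 451, 334, 429 and 115 CPM in NLC-MI mice 1 to 5 and 242, 579.7, 127, 353 and 407 CPM in TgGRK5-MI mice 1 to 5. One mouse of each group, NLC-MI 5 and TgGRK5-MI 3, lay far below the others. For Spp1 the log2 fold change was -0.14 (standard error 0.43, 95% interval -1.07 to 0.79, exact permutation p = 0.786). Cd44, a receptor of osteopontin, averaged 60.8 ± 25.7 CPM in the controls, against 59.1 ± 21.4 CPM with the transgene (SD, n = 5 each, edgeR adjusted p = 1.00).

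Trem2 (chr17:48346401-48354147, plus strand) encodes a lipid-sensing receptor that signals through the adaptor TYROBP. Its levels were 53.0, 45.1, 11.6, 24.2 and 13.9 CPM in NLC-MI mice 1 to 5 and 24.8, 63.0, 19.5, 24.6 and 38.8 CPM in TgGRK5-MI mice 1 to 5. NLC-MI 1, NLC-MI 2 and TgGRK5-MI 2 were the highest, and 2 NLC-MI mice were below all TgGRK5-MI mice. Its log2 fold change was 0.20 (standard error 0.44, 95% interval -0.76 to 1.17, exact permutation p = 0.540). Tyrobp averaged 38.5 ± 19.0 CPM in the controls, against 55.8 ± 21.1 CPM with the transgene (SD, n = 5 each, edgeR adjusted p = 1.00).

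Lgals3 (chr14:47367751-47386160, plus strand) encodes galectin-3, a carbohydrate-binding protein of activated macrophages that has been linked to cardiac fibrosis. It was at 236, 201, 100.2, 108 and 51.1 CPM in NLC-MI mice 1 to 5 and at 118, 272, 75.2, 139 and 191 CPM in TgGRK5-MI mice 1 to 5. The order of the mice resembled that of Trem2, with TgGRK5-MI 2, NLC-MI 1 and NLC-MI 2 at the top. For Lgals3 the log2 fold change was 0.19 (standard error 0.41, 95% interval -0.71 to 1.09, exact permutation p = 0.627).

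Of the markers of macrophages in general, Adgre1 (chr17:57358691-57483527, plus strand) was at 88.5, 68.2, 17.5, 37.3 and 28.7 CPM in NLC-MI mice 1 to 5. In TgGRK5-MI mice 1 to 5 it was at 48.8, 94.1, 35.7, 35.0 and 59.9 CPM. The TgGRK5-MI mice lay within or just above the range of the NLC-MI mice, and the log2 fold change was 0.18 (standard error 0.41, 95% interval -0.72 to 1.09, exact permutation p = 0.540). Cd68 (chr11:69664213-69666153, minus strand) showed the largest difference of the 10 markers. It was at 115, 99.1, 107, 66.1 and 32.8 CPM in NLC-MI mice 1 to 5 and at 78.6, 144, 80.0, 199 and 108 CPM in TgGRK5-MI mice 1 to 5. Only TgGRK5-MI 2 and TgGRK5-MI 4 exceeded every NLC-MI mouse, and 3 of 5 TgGRK5-MI mice exceeded the NLC-MI mean of 83.9 ± 34.0 CPM, with a TgGRK5-MI mean of 122 ± 50.7 CPM (SD, n = 5 each). The fitted log2 fold change of Cd68 was 0.54 (standard error 0.35, 95% interval -0.21 to 1.30, edgeR adjusted p = 1.00), and the exact permutation test gave p = 0.222. Without TgGRK5-MI 4 the log2 fold change of Cd68 was 0.30, and without NLC-MI 5 it was 0.33.

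**Figure D2:**
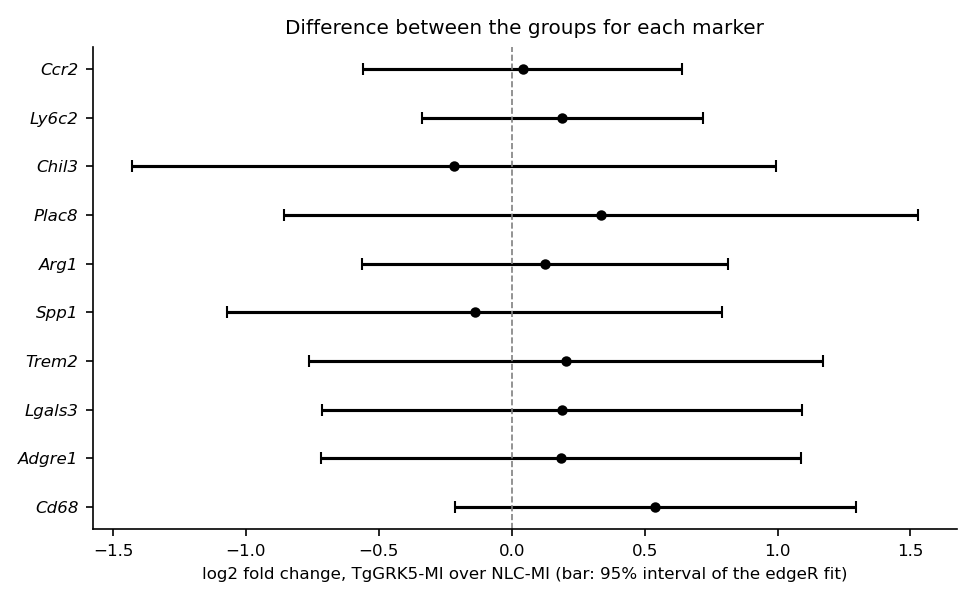
Log2 fold change of TgGRK5-MI over NLC-MI for each marker (points) with the 95% interval of the edgeR fit (bars, 5 mice per group), with a dashed line at 0. Every interval includes 0, the narrowest is that of Ly6c2 (-0.34 to 0.72) and the widest that of Chil3 (-1.43 to 0.99).

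These intervals give the changes that the 5 against 5 comparison did not exclude. For Ccr2 they run from 0.678-fold to 1.56-fold, and for Ly6c2 from 0.791-fold to 1.64-fold. For Plac8 they run from 0.552-fold to 2.88-fold and for Cd68 0.862-fold to 2.46-fold, wider than for the former pair.

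A ratio of 2 markers within a library does not depend on the scaling of the library, but it moves with either of the 2 genes. The ratios of Ly6c2 and of Arg1 to Adgre1 were both highest in NLC-MI 3, the library with the lowest Adgre1. The log2 ratio of Ccr2 to Adgre1 was -0.81 ± 0.68 in NLC-MI and -1.14 ± 0.48 in TgGRK5-MI (SD, n = 5 each, exact permutation p = 0.421, adjusted p = 0.701 over the 5 ratios computed). In 4 TgGRK5-MI mice it lay between -1.46 and -1.25, and TgGRK5-MI 4 was apart at -0.30. The ratio of Ly6c2 to Adgre1 differed by -0.13 (exact permutation p = 0.762) and that of Arg1 to Adgre1 by -0.08 (exact permutation p = 0.889). Both changed sign when NLC-MI 3 was left out (to 0.13 and 0.24). The ratio of Ly6c2 to Adgre1 also did so without TgGRK5-MI 5 (to 0.027). That of Arg1 to Adgre1 did so without NLC-MI 4 (to 0.19) or without TgGRK5-MI 2 (to 0.18). The log2 ratio of Spp1 to Cd68 was 2.27, 2.18, 1.64, 2.70 and 1.81 in NLC-MI mice 1 to 5 and 1.62, 2.00, 0.67, 0.82 and 1.91 in TgGRK5-MI mice 1 to 5. The means were 2.12 ± 0.41 and 1.41 ± 0.62 (SD, n = 5 each), a difference of -0.72, the groups overlapped, and the exact permutation p of 0.0794 (adjusted p = 0.397) missed the threshold. With 1 mouse left out at a time the difference ran from -0.86 to -0.53. The ratio of Lgals3 to Cd68 differed by -0.32 (exact permutation p = 0.341, adjusted p = 0.701).

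**Figure D3:**
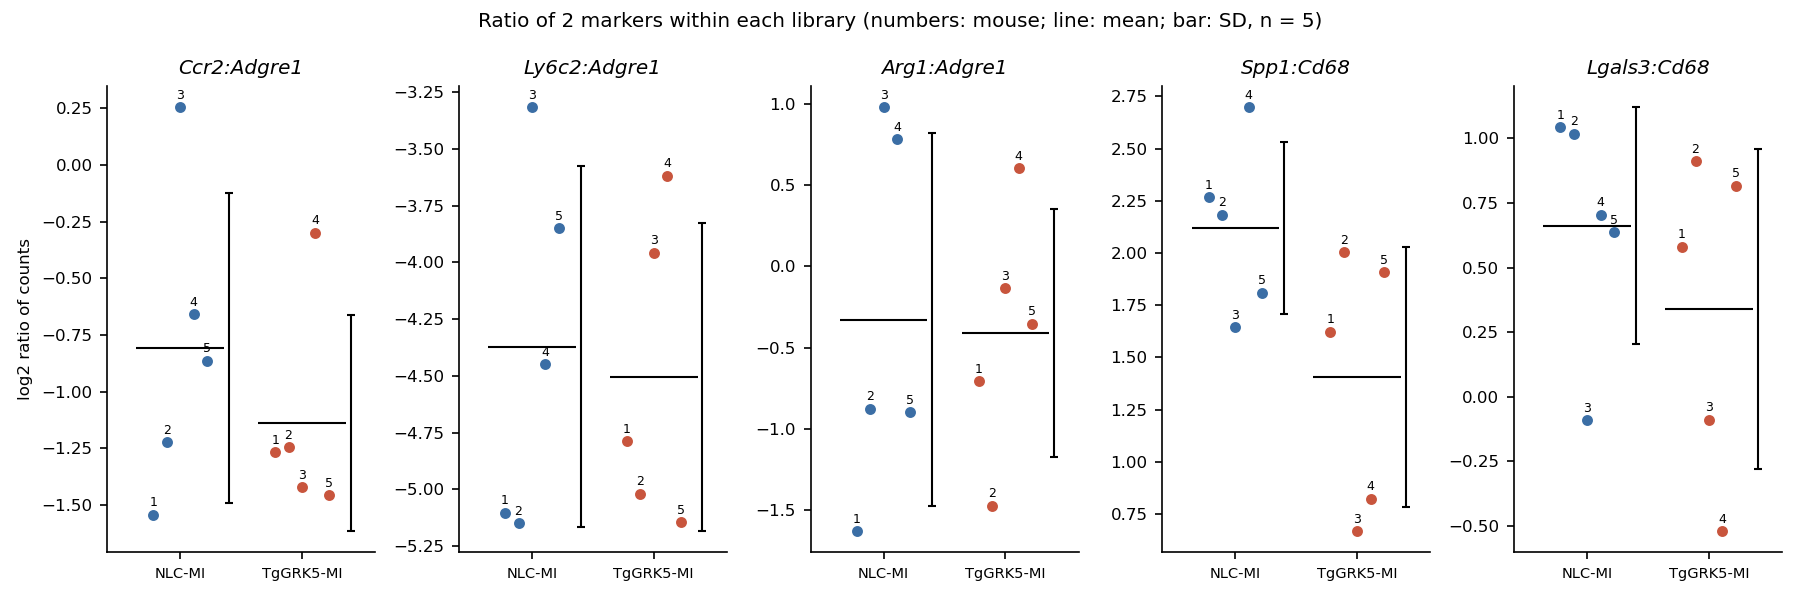
Log2 ratio of the counts of 2 markers within each library, with 1 point per mouse numbered 1 to 5, a line at the group mean and a bar of 1 SD (n = 5); the axes do not start at 0 and differ between panels. The groups overlap in all 5 panels, and the widest separation of the means is for Spp1 against Cd68, 2.12 in NLC-MI and 1.41 in TgGRK5-MI.

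Across the 10 mice some markers rose and fell together and others did not. Correlations were computed for 16 relations with Adgre1 over log2 CPM, with permutation p-values and Benjamini-Hochberg adjustment over the 16. The points share the library, its depth and its normalization. Trem2 followed Adgre1 most closely (Pearson r = 0.97, permutation p = 1e-05, the smallest that 100000 permutations can give, adjusted p = 0.00016, Spearman rho = 0.96, permutation p = 4e-05). When the 2 libraries farthest from the median of Adgre1, NLC-MI 3 and TgGRK5-MI 2, were left out, r was 0.96. Plac8 (r = 0.82, rho = 0.85, permutation p = 0.0037 and 0.003, r = 0.87 without the 2) and Lgals3 (r = 0.81, rho = 0.88, permutation p = 0.0049 and 0.0017, r = 0.89 without the 2) also followed Adgre1. The adjusted p of r was 0.012 for Plac8 and 0.013 for Lgals3. For Ccr2 the relation was looser (r = 0.64, rho = 0.71, permutation p = 0.045 and 0.027, adjusted p = 0.089 and 0.048, r = 0.63 without the 2), and for Spp1 r was 0.58 and rho 0.81 (permutation p = 0.085 and 0.0075, adjusted p = 0.14 and 0.017, r = 0.73 without the 2).

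For the other 4 markers, neither r nor rho with Adgre1 had an unadjusted permutation p under 0.05. Cd68, although it marks macrophages in general, had r = 0.33 and rho = 0.37 (permutation p = 0.35 and 0.29, r = 0.42 without the 2). TgGRK5-MI 4 was the highest library for Cd68 and the third lowest for Adgre1, and NLC-MI 3 was the lowest for Adgre1 and above the NLC-MI mean for Cd68. Ly6c2 had r = 0.42 and rho = 0.25 (permutation p = 0.23 and 0.49), which became r = 0.0043 without the 2 libraries and so rested on them. Arg1 had r = 0.06 and rho = -0.04 (permutation p = 0.88 and 0.92, r = 0.10 without the 2), and Chil3 had r = -0.24 and rho = -0.19 (permutation p = 0.51 and 0.61, r = -0.33 without the 2). With 5 mice in a group, the correlations were not computed within the groups.

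**Figure D4:**
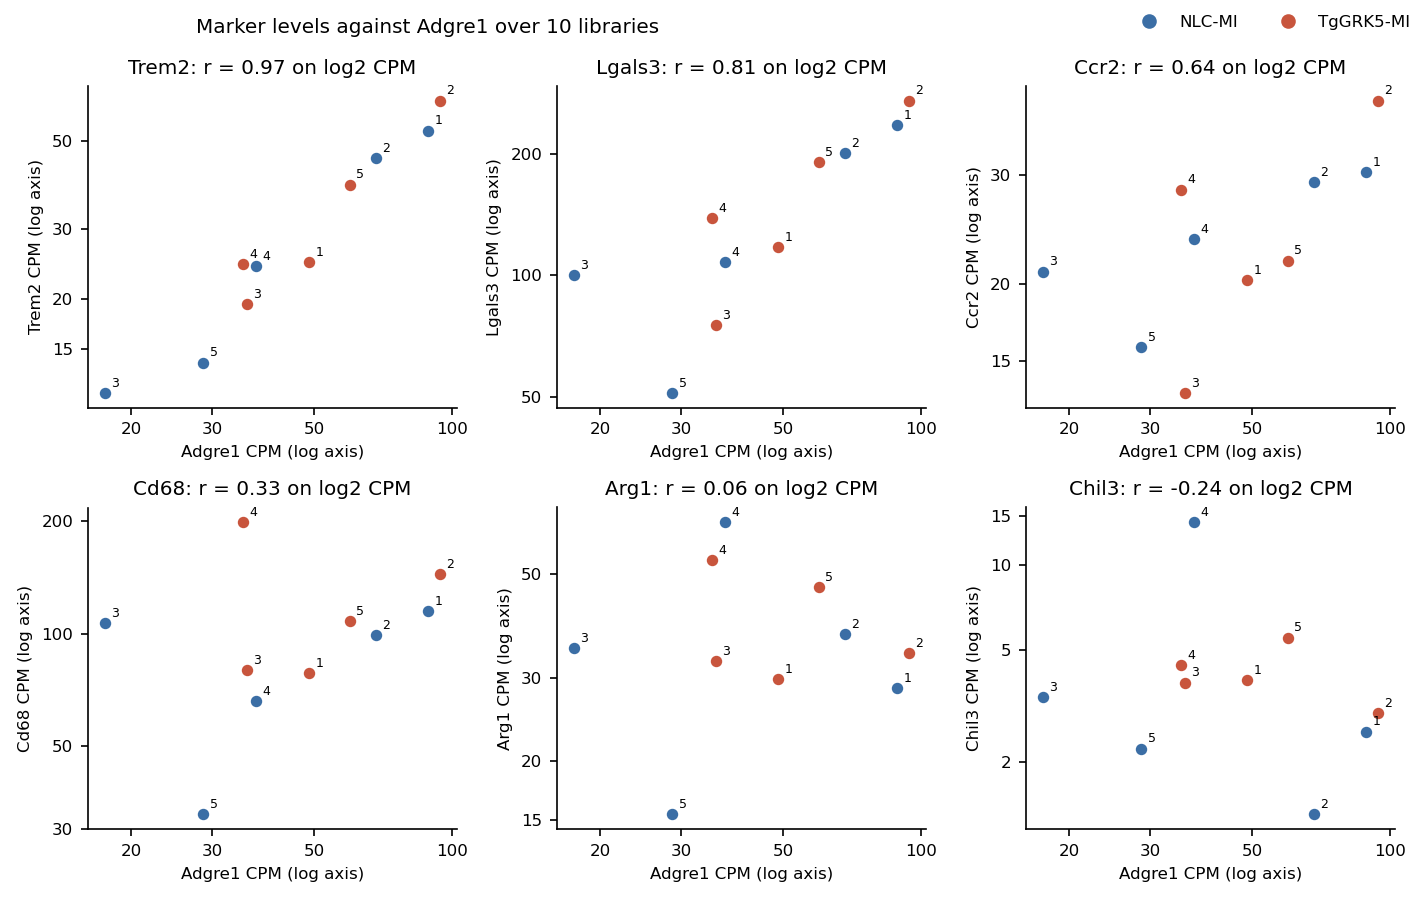
Level of 6 markers against that of Adgre1 in CPM, both on log axes, with 1 point per library numbered by mouse and colored by group. Trem2 lies along a line over all 10 libraries, Lgals3 and Ccr2 are looser, and Cd68, Arg1 and Chil3 show no relation with a permutation p under 0.05.

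Over the 45 pairs of markers, r ran from -0.28 to 0.97 with a median of 0.53, and 10 pairs were above 0.8. Those 10 pairs were formed by Ccr2, Plac8, Spp1, Trem2, Lgals3 and Adgre1 alone, so that monocyte and macrophage markers appeared on both sides. Chil3 had a median r of -0.15 with the other 9, and its highest r was 0.65, with Arg1. Both were highest in NLC-MI 4. Among all other genes tested, those whose log2 CPM was most like that of a marker over the 10 libraries were Arhgap19, Otulinl and Trpv2 for Trem2 (r = 0.995, 0.992 and 0.986), and Hexa, C1qa and Lrmp for Adgre1 (r = 0.99 each). For Lgals3 they were Rab7b, Abcg1 and Cnpy4 (r = 0.99 each), and for Cd68 Lcp2, Pqlc3 and Hpcal1 (r = 0.99, 0.98 and 0.98). For Spp1 they were Nek2, Lmnb1 and E2f2 (r = 0.99, 0.99 and 0.98), for Ccr2 Fut10, Gpr137b-ps and Cachd1 (r = 0.98, 0.97 and 0.97), and for Plac8 they included Hs2st1 and Fbln5 (r = 0.98 and 0.97). C1qa encodes a complement subunit made by macrophages, and Hexa encodes part of a lysosomal enzyme. The genes most like Arg1 included Arhgdia and Eno1 (r = 0.94 and 0.93), Chil3 was most like Esd, Ppme1 and Mettl1 (r = 0.91, 0.90 and 0.88), and Ly6c2 was most like Hoxb4, Sgk3 and Zc3h3 (r = 0.83 each). These genes were picked as the extremes of 15232, so their r is a description.

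The summed level of the 10 markers was 1125, 942, 635, 773 and 279.7 CPM in NLC-MI mice 1 to 5 and 577, 1254, 392, 845 and 886 CPM in TgGRK5-MI mice 1 to 5. TgGRK5-MI 2 and NLC-MI 1 were the highest, and NLC-MI 5 was the lowest library for the sum and for 5 of the markers. Over 18 other genes of leukocytes and macrophages in general, with C1qb and Mpeg1 the highest, the sum was 599 to 1870 CPM in NLC-MI and 1003 to 2074 CPM in TgGRK5-MI. This sum followed Adgre1 (r = 0.86, rho = 0.90, permutation p = 0.0017 and 0.00068, r = 0.85 without the 2 libraries). The sum of the 11 resident macrophage genes did so too (r = 0.84, rho = 0.84, permutation p = 0.0034 and 0.004, r = 0.73 without the 2). The 10 fibroblast genes, led by Col3a1 and Col1a1, followed Adgre1 as well (r = 0.83, rho = 0.84, permutation p = 0.0039 and 0.0041, r = 0.85 without the 2), and their sum was 4084 to 24246 CPM in NLC-MI and 4234 to 24944 CPM in TgGRK5-MI. The sum of the 12 cardiomyocyte genes ran the other way (r = -0.63, rho = -0.67, permutation p = 0.05 and 0.039, adjusted p = 0.089 and 0.062, r = -0.74 without the 2). It was highest, 167168 CPM, in NLC-MI 5, where the markers were lowest. Library depth moved with Adgre1 too (r = 0.74, rho = 0.76, permutation p = 0.013 and 0.015, r = 0.53 without the 2). The part of these other cells and of depth in the levels of the markers was not tested. For the neutrophil genes (r = -0.47, rho = -0.33, permutation p = 0.17 and 0.35) and the endothelial genes (r = -0.40, rho = -0.32, permutation p = 0.26 and 0.37) no permutation p was under 0.05.

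**Figure D5:**
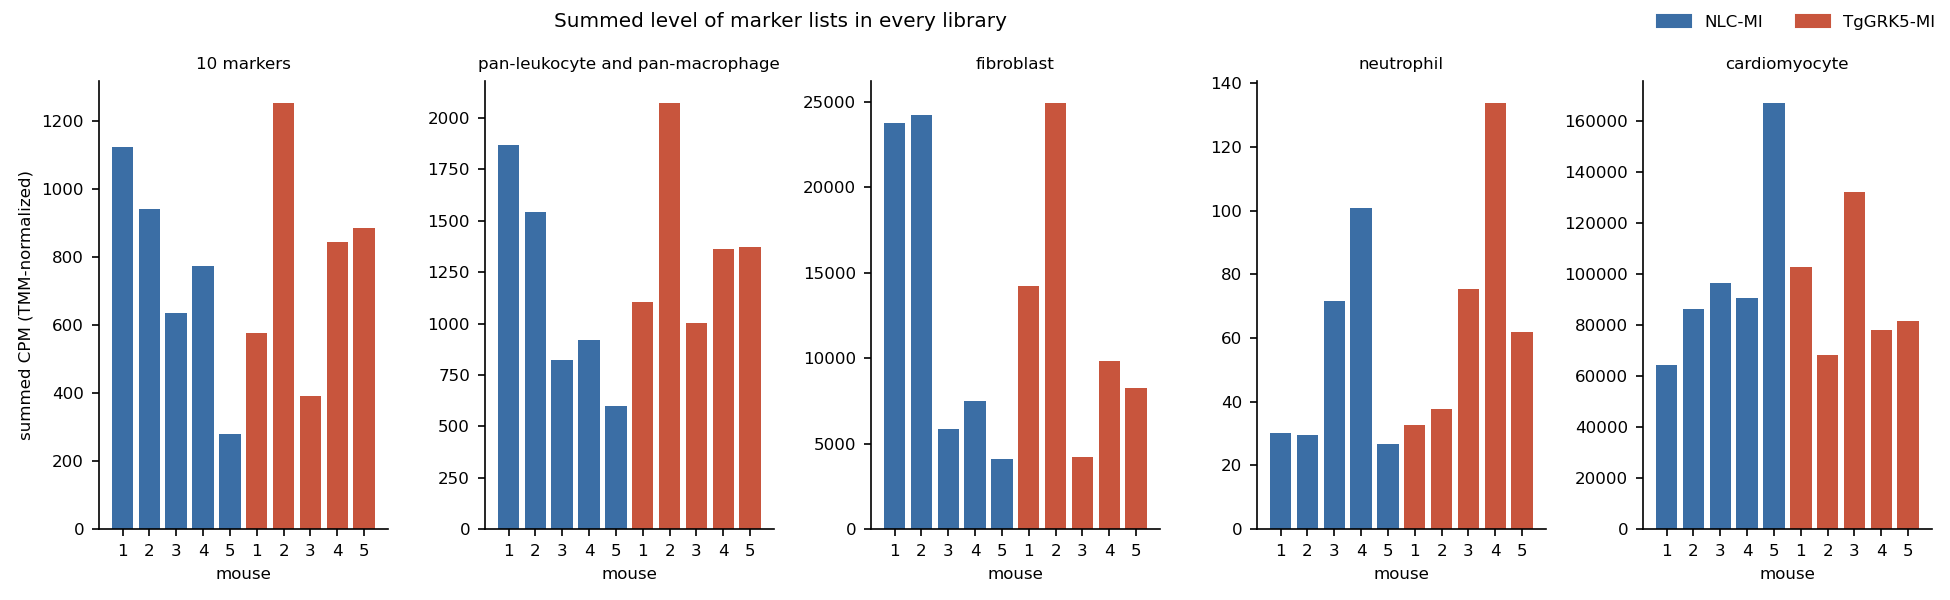
Summed CPM (TMM-normalized) of the 10 markers, of 18 general leukocyte and macrophage genes, of 10 fibroblast, 12 neutrophil and 12 cardiomyocyte genes, with 1 bar per mouse, bars from 0 and a separate scale in each panel. TgGRK5-MI 2 is the highest bar for the markers, the general leukocyte genes and the fibroblast genes, and NLC-MI 5 is the lowest for these 3 and the highest for the cardiomyocyte genes.

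Genes of the same stages and pathways were read from lists written by hand. Of 20 other genes of recruited monocytes, 19 were tested, 0 passed an unadjusted p under 0.05 and 15 had a positive fold change, with a median log2 fold change of 0.25. Fn1, the fibronectin gene that fibroblasts also express, averaged 1801 ± 1299.6 CPM in the controls and 1975 ± 1139.5 CPM with the transgene, and Lyz2, a lysozyme gene of myeloid cells, at 594 ± 338 and 789.7 ± 291 CPM (SD, n = 5 each). Of 21 signals for recruitment and survival of monocytes, 20 were tested and 0 passed, with a median of 0.17. Ccl2, the ligand of CCR2, averaged 19.6 ± 10.9 CPM in the controls and 19.9 ± 7.55 CPM with the transgene (SD, n = 5 each, edgeR adjusted p = 1.00), and the highest genes were Csf1r and Csf1, the receptor and ligand that keep macrophages alive. Of 26 other genes of infarct and lipid-associated macrophages, 25 were tested and 0 passed, with a median of 0.15. Lpl and Ctsd were the highest of these, and Lpl is a known product of cardiomyocytes as well. Of 34 partners and relatives of the markers, 28 were tested and 0 passed, with a median of 0.13, and Itgb1 and Lgals1 were the highest. In the general leukocyte list 18 of 18 genes had a positive fold change in the edgeR fit and 0 of 18 passed, with a median of 0.23. The general leukocyte genes were measured in the same mice, and their sum was highest in TgGRK5-MI 2 and lowest in NLC-MI 5. How their direction depends on single mice was not tested. For all these lists the share at an unadjusted p under 0.05 over all genes tested was 3.85%. Over all genes tested, 50.2% had a positive fold change.

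The markers of resident macrophages were the one related list in which genes passed the unadjusted threshold. In that list 4 of 11 genes were higher in TgGRK5-MI at an unadjusted p under 0.05, and 0 of 11 had an adjusted p under 0.10. Lyve1, a hyaluronan receptor, averaged 7.42 ± 0.625 CPM in the controls and 13.2 ± 3.39 CPM with the transgene (SD, n = 5 each, log2 fold change 0.83, edgeR adjusted p = 0.403). The others were Folr2, Cbr2 and Vsig4, with log2 fold changes of 0.59, 0.48 and 0.83. Whether resident and recruited markers differed in their response was not tested. Dendritic cell genes (7 of 9 tested), lymphocyte genes (3 of 12 tested) and mast cell genes (1 of 6 tested) had 0 genes past the unadjusted threshold, and their sums stayed between 2.81 and 39.2 CPM in every library. Of the 7 mural cell genes, Cspg4 was lower in TgGRK5-MI at an unadjusted p under 0.05 (log2 fold change -0.62), and 0 of 9 endothelial and 0 of 4 red blood cell genes tested passed. The red blood cell genes summed to 412 CPM in NLC-MI 3 and to 9.49 to 51.7 CPM in the other 9 libraries, and their part in the marker levels of NLC-MI 3 was not tested.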

How the data were processed

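RNA of isolated cardiomyocytes was sequenced from 5 NLC-MI and 5 TgGRK5-MI mice, grouped by the sample labels, with TruSeq libraries from total RNA. The authors deposited whole-number counts per Ensembl gene without normalization, and the submitters' processing notes name Bowtie2, RSEM 1.2.31, DESeq2 and mm10. RSEM gives estimated counts, so the deposited values may be rounded estimates. The strand setting and annotation version are not given in the sources used here. GENCODE M21 named 51596 of 51789 identifiers. In R 4.3.3 with edgeR 4.0.16, counts were normalized with TMM, filtered with filterByExpr (15232 of 28506 genes with a count) and compared with the quasi-likelihood F test, adjusting p-values by Benjamini-Hochberg. Log2 CPM used a prior count of 2, and 0.5 was added to counts for ratios. Exact permutation tests were two-sided, as were the 100000 permutations of each correlation. P-values measure the spread between mice.

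Named genes were the 10 markers, genes of hand-written lists past an unadjusted p of 0.05 (otherwise the 2 highest of a list), chosen partners and copies, and the 3 genes most like each marker. Arg2, Nos2 and the neutrophil genes at most at 3 counts were added after their values were seen. The markers and lists were chosen with earlier results of these data known. Alternatives were DESeq2 1.42.0, RLE size factors, scaling by library size alone, limma-voom (limma 3.58.1) with quality weights, no filter, at least 10 counts in every library, leaving out each library, the replicate number as a block and, added after the data were seen, the 7 deepest libraries alone. The code was tested on simulated data. Some genes that the rule names are not reported here.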

Additional observations from a re-analysis of the deposited data

Results flagged for a closer look

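In 32 groups of 5 values, each made of 1 marker, 1 ratio or the summed markers in 1 group of mice, the most distant mouse was compared with the spread of its group, and 2 mice stood apart from the other 4. Chance sets a mouse apart in about 1 in 20 such groups.

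Chil3 was at 14.3 CPM in NLC-MI 4, while the other 4 NLC-MI mice were between 1.30 and 3.40 CPM. This mouse also had the highest Arg1 of the 10, and the highest sum of neutrophil genes among the NLC-MI mice, 101 CPM. Lcn2, which leads that sum, reached 62.0 CPM at most in an NLC-MI mouse.

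The log2 ratio of Ccr2 to Adgre1 was -0.30 in TgGRK5-MI 4, while the other 4 TgGRK5-MI mice were between -1.46 and -1.25. Its Ccr2 level was 28.4 CPM and its Adgre1 level 35.0 CPM, and it was 1 of the 3 shallow libraries. The part of depth or of other cells in either value was not tested.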

How the results depend on the processing

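Of 180 repeats of the 10 fold changes under other settings, 156 kept their direction and 24 reversed, and 0 reached an adjusted p under 0.10 (lowest 0.576). With limma-voom, Ccr2 became -0.23, Chil3 0.77, Plac8 -0.013, Trem2 -0.18, Lgals3 -0.14 and Adgre1 -0.074 on the log2 scale. With the replicate block, Ccr2 became -0.0075 and Chil3 0.33, and in the 7 deep libraries Spp1 became 0.079. With 1 mouse left out, Ccr2 ran from -0.20 to 0.19, Chil3 from -0.46 to 0.83, Plac8 from -0.30 to 0.80, Arg1 from -0.079 to 0.44, Spp1 from -0.42 to 0.065, Trem2 from -0.14 to 0.51, Lgals3 from -0.094 to 0.45 and Adgre1 from -0.10 to 0.51. The difference in the log2 ratio of Ly6c2 to Adgre1 ran from -0.35 to 0.13, and that of Arg1 to Adgre1 from -0.41 to 0.24. The difference for Spp1 to Cd68 had an exact permutation p of 0.0476 without TgGRK5-MI 2 or without TgGRK5-MI 5. The count of markers at an unadjusted p under 0.05 ran from 0 to 1, the 1 being Chil3 without NLC-MI 4.

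Over all genes, those at an adjusted p under 0.10 were 8 higher and 4 lower. They were 42 and 27 with DESeq2, 41 and 9 with limma-voom, 13 higher with library size alone, 13 higher with no filter, 4 higher with at least 10 counts in every library, and 5 and 1 in the 7 deep libraries. With 1 mouse left out they ran from 2 to 7 higher and 1 to 3 lower. At an unadjusted p under 0.05 there were 269 higher and 317 lower, 1138 and 672 with limma-voom, 516 and 647 with no filter, 493 lower with DESeq2, and with 1 mouse left out 176 to 591 higher and 264 to 536 lower. The cause of these shifts was not tested. The replicate block gave 5 higher and 3 lower genes at an adjusted p under 0.10. Same-numbered mice had correlations of 0.07, 0.66, 0.38, -0.34 and 0.08, and 2 of 10 libraries correlated best with their own number. The mean was 0.17 over same numbers and -0.027 over other numbers. A pairing by number was neither given by the labels nor shown by these values.

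Ly6c2 had the fewest counts (13 to 66) and yet the narrowest interval of the markers (-0.34 to 0.72). The part of depth in its values was not tested. With 5 mice per group the interval of Chil3 was -1.43 to 0.99.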
